A study of Mus musculus with 4 samples.

Results

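The integrin and laminin genes were examined in RNA-seq profiles of subcutaneous tumors grown in mice from LLC, a cell line of Lewis lung carcinoma. Members were chosen by symbol alone, as every row named for an integrin alpha subunit, for the integrin beta subunits Itgb1 to Itgb8, or for a laminin alpha, beta or gamma chain. This rule found 38 of the 47729 gene rows, covering 18 integrin alpha, 8 integrin beta and 11 laminin symbols. Itgam was listed under 2 identifiers, of which ENSMUSG00000108596 was at or below 0.0999 RPM in every pool, and Itgam below means ENSMUSG00000030786. In the first group, LLC-Chem, the LLC cells had been transfected with pEFIN plasmids for murine chemerin (1-157). The second group, LLC, was labelled wild type. All tumors were grown under the skin of the back for 5 days, in C57BL/6 hosts, and each group had 2 libraries, each made from a pool of several tumors. After transfection the cells were selected with G418 and individual clones were collected, so chemerin and any difference between clones cannot be told apart. An empty vector was also used in the study, and if the controls were untransfected, as their label says, transfection and selection differed between the groups too. Vessels, stroma and leukocytes in these tumors came from the host.

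Integrins are cell surface receptors made of an alpha and a beta subunit, which bind the extracellular matrix or counter-receptors on other cells and link them to the actin cytoskeleton. Laminins are trimers of an alpha, a beta and a gamma chain that assemble, with collagen IV, nidogen and perlecan, into the basement membranes under epithelia and around vessels, muscle and nerve. In vessels, the laminin alpha chains encoded by Lama4 and Lama5 lie under the endothelium, and integrins on endothelial cells, pericytes and leukocytes bind the matrix around them.

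Expression was given as RPM, that is, reads on a gene per 1000000 reads on all genes of the pool. The libraries held between 28470000 and 33990000 reads on genes, as fitted from the values. A signal of 3 reads, used here as the limit of detection, was worth between 0.088 and 0.105 RPM (counting error only). Rarres2, the gene of chemerin, was at 102.2 and 98.2 RPM in LLC tumors and at 105.9 and 105.8 RPM in the libraries labelled LLC-Chem, a difference that was not called (limma adjusted p = 0.541), so the labelled expression of murine chemerin was not borne out by this gene. In the study, culture medium of the chemerin-transfected clones triggered calcium release in cells with the chemerin receptor CMKLR1, and medium of empty-vector cells did not. The study also reported a smaller area stained for the endothelial protein CD31 in LLC tumors expressing chemerin. Neither measurement was analysed here. LLC-Chem below means the libraries so labelled, and every direction rests on those labels. The epithelial keratin genes Krt8 and Krt18 were present in every pool, at 82.8 RPM or more, while the keratinocyte genes Krt5 and Krt14 did not exceed 0.05 RPM in any pool. LLC-Chem was compared with LLC by a two-sided limma test of log2(RPM + 0.5) in the 13694 genes that averaged 1 RPM or more, and a gene was called at an adjusted p under 0.05. The fold changes below are on that log2 scale and understate the change of weakly expressed genes. With 2 pools against 2, the smallest p of an exact permutation test for a single gene is 0.33.

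To set members called in either direction side by side, the 250 bases before the start of 4 called genes are shown. Itgam encodes the alpha subunit of a myeloid integrin, Lama5 a laminin chain of vessels and epithelia, and Itga1 and Itga10 encode alpha subunits that bind collagen. The sequences are from RefSeq on GRCm38.p6, 5′ to 3′ on the strand of the gene, and end at the base before the annotated start. Capitals mark GAGGAA, the core bound by the myeloid factor PU.1, and GGGCGG, the GC box, on either strand.
Itgam (chr7:128062390-128062639, plus strand): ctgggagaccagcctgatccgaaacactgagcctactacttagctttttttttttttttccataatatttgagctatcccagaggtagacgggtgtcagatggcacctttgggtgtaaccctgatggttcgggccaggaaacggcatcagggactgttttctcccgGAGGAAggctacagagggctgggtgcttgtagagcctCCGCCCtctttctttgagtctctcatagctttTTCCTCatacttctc
Lama5 (chr2:180225860-180226109, minus strand): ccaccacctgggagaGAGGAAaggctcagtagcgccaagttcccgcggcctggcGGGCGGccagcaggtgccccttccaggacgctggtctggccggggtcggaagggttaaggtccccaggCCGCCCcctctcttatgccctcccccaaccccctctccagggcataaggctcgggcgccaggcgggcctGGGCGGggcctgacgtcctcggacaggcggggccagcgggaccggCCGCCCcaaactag
Itga1 (chr13:115101965-115102214, minus strand): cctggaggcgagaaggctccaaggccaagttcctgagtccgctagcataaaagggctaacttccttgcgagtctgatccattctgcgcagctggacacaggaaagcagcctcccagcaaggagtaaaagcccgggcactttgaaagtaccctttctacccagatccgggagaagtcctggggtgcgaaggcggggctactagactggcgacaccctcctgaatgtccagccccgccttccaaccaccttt
Itga10 (chr3:96645334-96645583, plus strand): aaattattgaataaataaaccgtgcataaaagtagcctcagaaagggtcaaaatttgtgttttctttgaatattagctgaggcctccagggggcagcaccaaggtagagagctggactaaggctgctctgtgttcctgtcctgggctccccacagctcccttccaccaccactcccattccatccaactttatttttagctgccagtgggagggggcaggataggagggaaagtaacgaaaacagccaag
Windows were matched for 23 of the 37 symbols. GAGGAA was found on either strand in 11 of these 23 and in 23.1% of the 27025 promoter windows of the same length. Among the members it stood before 2 of the 7 called lower with a window, 0 of the 2 called higher and 8 of the 11 tested and not called. The Itgam window held it at both 10 and 79 bases before the start, counted from the end of the match. GGGCGG was found in 8 of the 23 windows, against 32.9% of all, and Lama5 held it 4 times. ACGTG, the core bound by hypoxia-inducible factors, was found in 1 of the 23, that of Itga9, against 16.6% of all. That window starts from a RefSeq transcript whose start lies 105002 bases inside the gene as GENCODE gives it, and those of Lamb3 and Lama2 lie 94295 and 2816 bases from the GENCODE start. The windows of Itga1 and Itga10 held none of the 3 motifs. No match of a motif overlapped that of another in the 4 windows printed.

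Integrin genes were more often called lower than higher in LLC-Chem tumors, while few laminin genes were called. Of the 22 integrins tested, 8 fell and 2 rose, and of the 7 laminins tested, 1 fell and 0 rose. Of the 29 genes abundant enough to test, 9 fell and 2 rose. The genes that fell were Itgal, Itga7, Itga2, Lama5, Itga1, Itga9, Itga3, Itgb7 and Itgam. The genes that rose were Itgb8 and Itga10. Of these 11, Itga2 alone averaged under 1 RPM in a group and passed the filter only through the group where it was high. Among all 13694 genes tested, limma called 13.5% lower and 9.54% higher, against 31.0% and 6.90% of the 29. The median log2 fold change of the 29 was -0.54, and that of all genes tested -0.04. In 17 of the 29 both LLC-Chem pools lay below both LLC pools, and in 8 both lay above. The background shares for these orders were 39.3% and 33.1% of the genes tested. Whichever of the 4 pools was left out, limma called 0 of the 13694 genes, with 3 pools and 1 residual degree of freedom. At an unadjusted p under 0.05 these fits still gave between 9 and 13 members lower and between 2 and 5 higher, beside 1580 to 2823 lower and 998 to 2359 higher among all 13694 genes. DESeq2 called 13.7% of genes higher and 16.6% lower, with 4 and 10 members. The quasi-likelihood test of edgeR called 11.4% and 11.8% and limma with TMM scaling 11.4% and 12%, each with 2 and 8 members. All 11 called members kept their direction in the 4 fits, with adjusted p from 0.0548 to 0.258 by limma.

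**Figure D1:**
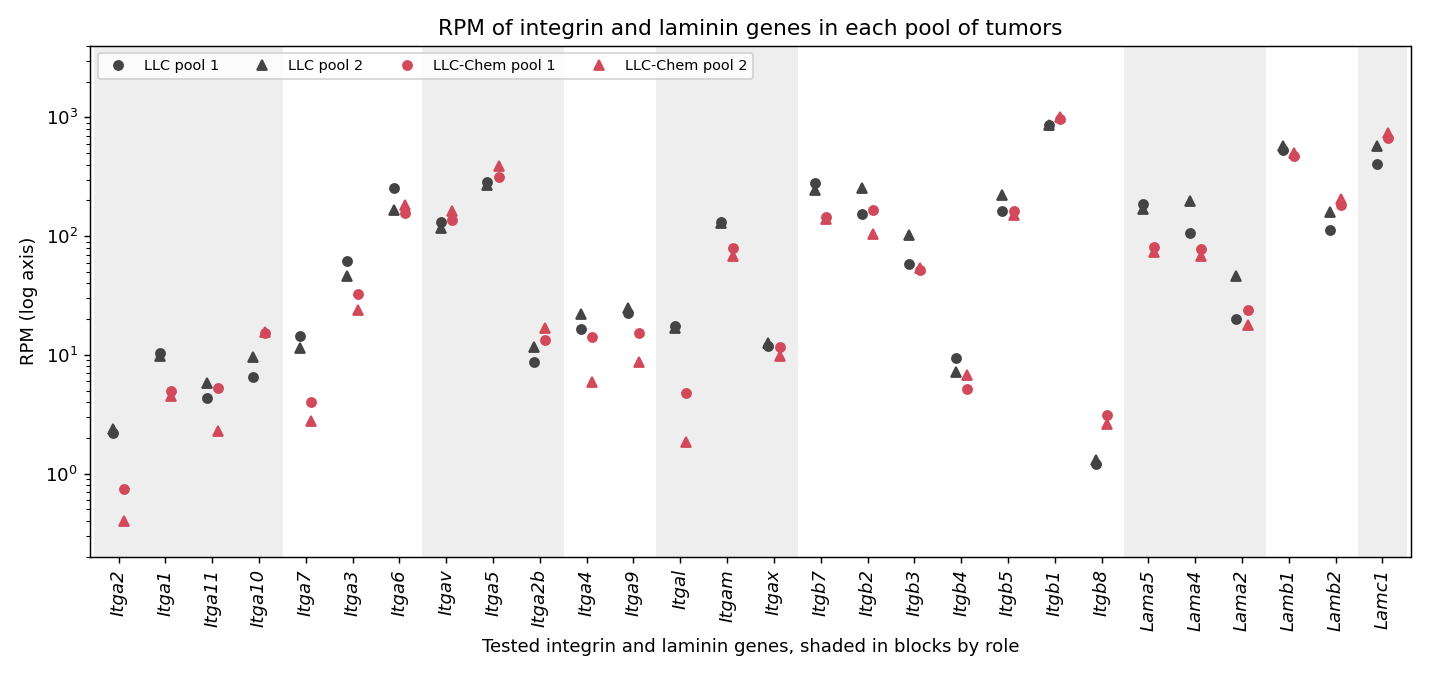
RPM on a log axis for 28 of the 29 tested integrin and laminin genes in each of the 4 pools, with genes in shaded blocks by role, circles for the first and triangles for the second pool of a group, grey for LLC and red for LLC-Chem. Itgb1 is the most abundant member, between 857 and 1006 RPM, and the LLC-Chem pools of Itgal lie farthest below their LLC pools.

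**Figure D2:**
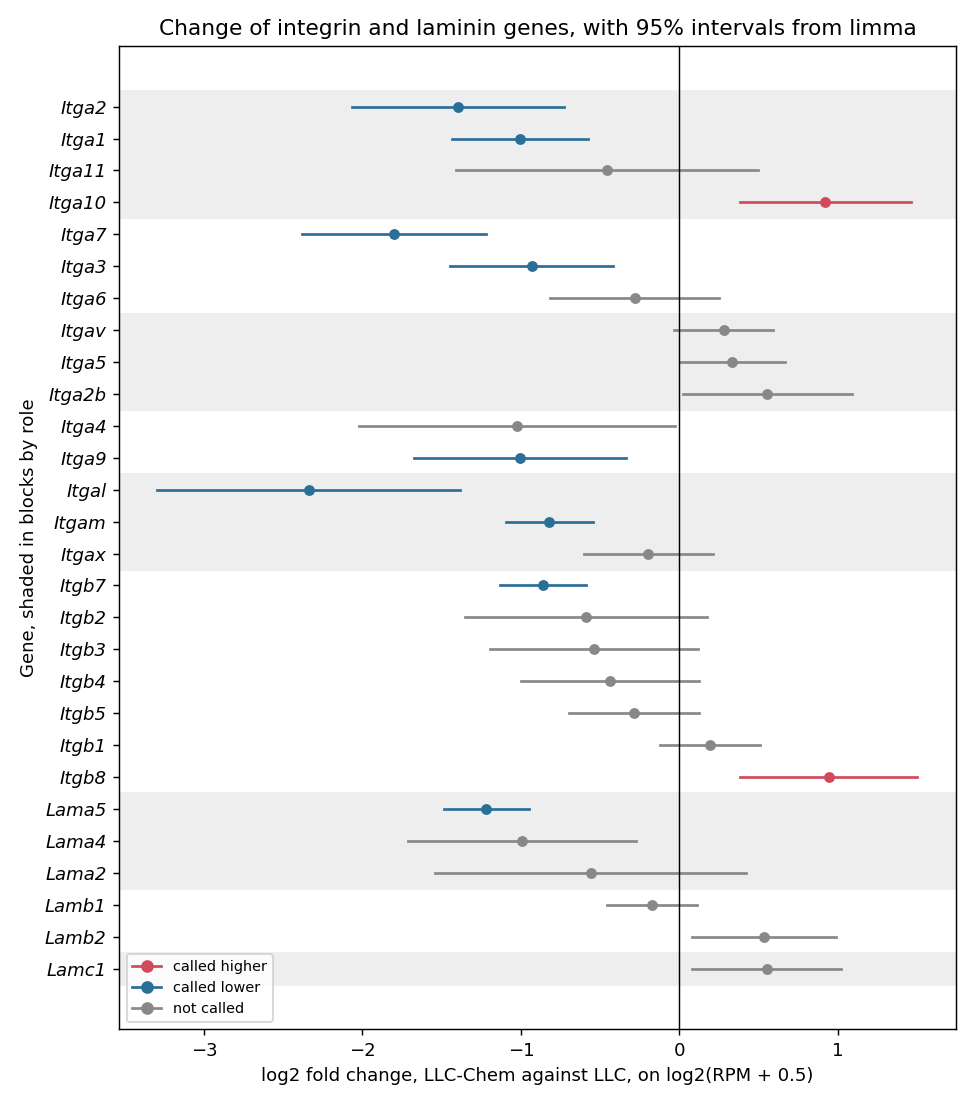
The log2 fold change of 28 of the 29 tested genes in LLC-Chem against LLC tumors (points) with its 95% interval from limma (lines), in shaded blocks by role, blue for called lower, red for called higher and grey for not called. The 9 blue genes run from -2.34 for Itgal to -0.82 for Itgam, and the 2 red genes are at 0.92 and 0.94.

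Of the 4 alpha subunits of collagen receptors tested, Itga1 and Itga2 fell and Itga10 rose. Itga1 (ENSMUSG00000042284, chromosome 13 of GRCm38, 114953096 to 115101964, minus strand) and Itga2 (ENSMUSG00000015533, chromosome 13, 114833081 to 114932100, minus strand) are neighbours, 20995 bases apart. Both encode alpha subunits that pair with Itgb1 and carry an inserted collagen-binding domain. Itga1, found on mural cells, endothelium and fibroblasts, measured 10.3 and 9.74 RPM in LLC tumors and 5.00 and 4.5 RPM in LLC-Chem tumors. It fell by 1.01 in log2 (limma SE 0.17, adjusted p = 0.0202). Itga2 measured 2.20 and 2.40 RPM in LLC tumors and 0.750 and 0.400 RPM in LLC-Chem tumors, where it was down to 24 and 12 reads. It fell by 1.40 in log2 (limma SE 0.27, adjusted p = 0.0256). Itga2 passed the filter on low values only through its LLC pools, so its call is tied to that filter and is no support for a direction of the class. The pools of a group lay close together for Itga1, the LLC-Chem pools of Itga2 lay apart, and the groups did not overlap in either gene.
Itga10 (ENSMUSG00000090210, chromosome 3, 96645584 to 96664519, plus strand), the collagen receptor best known from cartilage, went the other way. It measured 6.50 and 9.59 RPM in LLC tumors and 15.3 and 15.5 RPM in LLC-Chem tumors, where both pools stood above both LLC pools. It rose by 0.92 in log2 (limma SE 0.22, adjusted p = 0.0372, 0.00463 to 0.258 over its alternatives). Of its exon bases, 33.5% also lie under exons of Gm42957, a gene on the same strand that is listed in the table, so that reads there may have been dropped or split. Itga11, the fourth collagen-binding alpha subunit and a marker of activated fibroblasts, was at 4.35 and 5.80 RPM in LLC and 5.30 and 2.30 RPM in LLC-Chem tumors. These groups overlapped, and it was not called (limma adjusted p = 0.40). Per kb of exon, Itga10 was 2.25 and 3.53 times as abundant as Itga1 in LLC tumors and 11 and 12.4 times in LLC-Chem tumors.

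Among the alpha subunits that bind laminin, Itga7 and Itga3 fell and Itga6 was not called. Itga7 (ENSMUSG00000025348, chromosome 10, 128933818 to 128958282, plus strand), the laminin receptor of skeletal and vascular smooth muscle, went from 14.4 and 11.5 RPM to 4 and 2.80 RPM. It had a log2 fold change of -1.80 (limma SE 0.23, adjusted p = 0.0135), so that LLC-Chem tumors held 26.2% of the mean level in LLC tumors. This gap was far larger than the distance between pools of a group. Itga3 (ENSMUSG00000001507, chromosome 11, 95044474 to 95076801, minus strand), which binds the laminins made with Lama5 and Lama3, went from 62.3 and 46.2 RPM to 32.3 and 24.1 RPM (limma log2 fold change -0.93, SE 0.21, adjusted p = 0.0334). Its call was lost when eBayes was run without a trend (6.51% of genes higher and 9.28% lower), and in no other fit that kept 4 pools and the filter on low values. Itga6, the laminin receptor of endothelium and epithelium, was the most abundant of the 3, at 256 and 168 RPM in LLC and 158 and 184 RPM in LLC-Chem tumors. The first LLC pool stood above the rest and the groups overlapped, with a log2 fold change of -0.28 and a 95% interval from -0.82 to 0.25. Without the first LLC pool its log2 fold change was 0.02. Itgb4, the partner of Itga6 in hemidesmosomes, was low, between 5.15 and 9.34 RPM over the 4 pools, and was not called (limma log2 fold change -0.44, adjusted p = 0.195).

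Of the alpha subunits of the fibronectin and vitronectin receptors, 3 were tested and none was called. All 3 had both LLC-Chem pools above the LLC pools, an order that 33.1% of all genes tested showed. These subunits bind the RGD motif of their ligands. Itga5, the classical fibronectin receptor, measured 285 and 272 RPM in LLC tumors and 316 and 389 RPM in LLC-Chem tumors. Its log2 fold change of 0.34 had a 95% interval from 0.002 to 0.67 (limma adjusted p = 0.119). Itgav, the alpha subunit of the vitronectin receptors, was at 131 and 116 RPM and then at 138 and 163 RPM (limma log2 fold change 0.28, adjusted p = 0.15). Both differences were smaller than that of any called member. Itga2b, the platelet and megakaryocyte subunit that binds fibrinogen, was at 8.70 and 11.7 RPM in LLC and 13.4 and 17.0 RPM in LLC-Chem tumors (limma log2 fold change 0.56, adjusted p = 0.11). The order of its pools was the reverse of that of Pf4 and Ppbp. The platelet chemokine genes Pf4 and Ppbp had log2 fold changes of -1.12 and -3.44 (limma adjusted p = 0.0126 and 0.01), although macrophages can also express Pf4, and Gp9, Gp6, Gp5 and Gp1ba did not exceed 0.50 RPM in any pool. Itga8, a receptor of mural and mesangial cells for nephronectin, was below the limit for testing. It was at 1.20 and 1.30 RPM in LLC tumors, or 36 reads in each, and at 0.250 and 0.0999 RPM in LLC-Chem tumors, or 7 and 2 reads. With genes of at least 0.3 RPM admitted (7.6% called higher and 11% lower), Itga8 was called (limma log2 fold change -1.38, adjusted p = 0.0192), but it passed that filter only through its LLC pools, so the call is no support. With no filter it was not called (limma adjusted p = 0.105).

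Of the leukocyte alpha subunits, Itgal and Itgam fell and Itgax was not called. Itgal (ENSMUSG00000030830, chromosome 7, 127296260 to 127335138, plus strand), the subunit through which lymphocytes and other leukocytes bind ICAM, showed the largest log2 fold change among the 29 genes. It measured 17.6 and 16.9 RPM in LLC tumors and 4.75 and 1.85 RPM in LLC-Chem tumors (limma log2 fold change -2.34, SE 0.38, adjusted p = 0.0187), or 19.1% of the LLC mean. The LLC pools nearly coincided while the LLC-Chem pools differed between themselves, and the log2 fold change was between -2.92 and -1.76 when single pools were left out.
Itgam (ENSMUSG00000030786, chromosome 7, 128062640 to 128118491, plus strand), the alpha subunit of the complement receptor of monocytes, macrophages and neutrophils, went from 133 and 129 RPM to 79.1 and 68.7 RPM. It fell by 0.82 in log2 (limma SE 0.11, adjusted p = 0.0136). The second identifier of Itgam lies over 68.7% of its exon bases, where counting can drop reads, so its level may be understated. Itgax, a subunit of dendritic cells and macrophages, starts 11.1 kb after the end of Itgam and was at 11.9 and 12.6 RPM and then at 11.6 and 9.79 RPM. It was not called, and its log2 fold change of -0.20 had a 95% interval from -0.60 to 0.21, while that of Itgam ran from -1.10 to -0.55. Itgad, the next gene on chromosome 7, was at or below 0.05 RPM in every pool.
Itgb2, the beta subunit that Itgal, Itgam, Itgax and Itgad share, was at 154 and 253 RPM in LLC tumors and at 165 and 104 RPM in LLC-Chem tumors. The groups overlapped and Itgb2 was not called (log2 fold change -0.59, 95% interval -1.36 to 0.17). The ratio of Itgal to Itgb2 per kb of exon was 0.0531 and 0.031 in LLC tumors and 0.0133 and 0.00828 in LLC-Chem tumors, whereas that of Itgam to Itgb2 overlapped, at 0.523 and 0.309 against 0.291 and 0.402.

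Of the alpha subunits of leukocyte homing and lymphatic vessels, Itga9 fell and Itga4 was not called. Itga9 went from 22.7 and 24.9 RPM to 15.3 and 8.75 RPM (limma log2 fold change -1.01, SE 0.27, adjusted p = 0.0484). This call stood just inside the threshold and was lost in 8 alternatives that kept 4 pools, such as TMM scaling (limma adjusted p = 0.0544) and the quasi-likelihood test of edgeR (adjusted p = 0.0622), with a range of 0.0109 to 0.231 over its alternatives. Itga4, which pairs with Itgb1 or Itgb7 to bind VCAM and MADCAM, was at 16.6 and 22.3 RPM and then at 14.1 and 5.95 RPM (limma log2 fold change -1.03, 95% interval -2.02 to -0.03, adjusted p = 0.114). Both LLC-Chem pools were below both LLC pools in these genes, but the LLC-Chem pools themselves stood apart. Itgae, the subunit of intraepithelial T cells, was between 0.60 and 1.30 RPM and was not tested.

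Itgb7 (ENSMUSG00000001281, chromosome 15, 102215995 to 102231944, minus strand), the beta subunit of gut-homing lymphocytes, was abundant in these tumors and fell in LLC-Chem. It measured 278 and 245 RPM in LLC tumors and 146 and 141 RPM in LLC-Chem tumors. The log2 fold change was -0.86 (limma SE 0.11, adjusted p = 0.013), with each group's pools close together. Its known partners were scarce by comparison. Per kb of exon, Itgb7 stood at 94.4 RPM in LLC tumors, Itga4 at 1.39 RPM and Itgae at 0.245 RPM, so that Itgb7 exceeded Itga4 by 52.3 to 119 times over the 4 pools. Among the 8 beta subunits it accounted for 23.9% and 19.1% of the summed level per kb in LLC tumors and for 13.3% and 13.2% in LLC-Chem tumors.
Itgb1, the partner of most alpha subunits, accounted for 50.4% and 45.4% of that sum in LLC tumors and for 59.2% and 64.1% in LLC-Chem tumors. Its own level was 864 and 857 RPM and then 961 and 1006 RPM, a log2 fold change of 0.19 with a 95% interval from -0.12 to 0.51 that was not called. Itgb8 (ENSMUSG00000025321, chromosome 12, 119158022 to 119238802, minus strand), which with Itgav activates latent TGF-beta, was the beta subunit that rose. It measured 1.20 and 1.30 RPM in LLC tumors and 3.15 and 2.60 RPM in LLC-Chem tumors (limma log2 fold change 0.94, SE 0.23, adjusted p = 0.0385, 0.028 to 0.196 over its alternatives). It remained a minor subunit, at no more than 0.0715% of the summed level. Itgb3 and Itgb5, which pair with Itgav, were at 58.1 and 103 RPM and at 163 and 223 RPM in LLC tumors. In LLC-Chem tumors Itgb3 was at 51.8 and 54.5 RPM and Itgb5 at 162 and 151 RPM. Neither was called (limma adjusted p = 0.179 and 0.24), and in both the second LLC pool stood above the rest. Itgb6, an epithelial subunit, did not exceed 0.20 RPM.

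Of the 7 laminin chains tested, Lama5 fell and the others were not called, beside 13.5% of all genes tested called lower. Lama5 (ENSMUSG00000015647, chromosome 2, 180176373 to 180225859, minus strand) measured 188 and 171 RPM in LLC tumors and 80.6 and 73.0 RPM in LLC-Chem tumors. It had a log2 fold change of -1.22 (limma SE 0.11, adjusted p = 0.00909), the lowest adjusted p among the members. The groups were separated by far more than the distance between their pools. Lama4, the chain that marks endothelial basement membranes, was at 106 and 198 RPM and then at 77.4 and 68.2 RPM. Its LLC pools lay far apart, and it just missed the threshold (limma log2 fold change -0.99, 95% interval -1.71 to -0.27, adjusted p = 0.0587). DESeq2 called Lama4 (adjusted p = 0.00408), and the adjusted p ran from 0.00408 to 0.339 over its alternatives. Lama2, the chain of muscle and nerve, was at 20.04 and 46.3 RPM and then at 23.7 and 17.8 RPM, with overlapping groups (limma adjusted p = 0.321). Without the second LLC pool its log2 fold change was 0.03. Lama3, of epithelial basement membranes, was between 0.15 and 0.70 RPM, and Lama1 was at 0 RPM in every pool, below the 0.088 to 0.105 RPM that 3 reads are worth.

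Lamc1, the gamma chain of nearly all vascular and muscle laminins, was at 408 and 570.3 RPM in LLC tumors and at 669 and 746 RPM in LLC-Chem tumors. Its log2 fold change of 0.55 was not called (95% interval 0.08 to 1.02, limma adjusted p = 0.085), although both LLC-Chem pools stood above both LLC pools. Lamb2, the beta chain of mature vessels and the neuromuscular junction, was at 112 and 159.6 RPM and then at 184 and 204 RPM, the same order (limma log2 fold change 0.53, 95% interval 0.08 to 0.99, adjusted p = 0.0845). DESeq2 called both (adjusted p = 0.0286 and 0.0437), against ranges of 0.0286 to 0.424 and 0.0437 to 0.41 over their alternatives. Lamb1, the most abundant beta chain, was at 529 and 569.8 RPM and then at 475 and 499 RPM, and its log2 fold change of -0.17 had a 95% interval from -0.46 to 0.11. Lamb3, an epithelial chain gene, was weakly expressed. It was at 0.90 and 1.80 RPM and then at 0.45 and 0.30 RPM, below the limit for testing, and Lamc3 did not exceed 0.20 RPM.

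The laminin chains were set against each other per kb of exon. The 5 alpha chains summed to 26.6 and 34.4 RPM per kb in LLC tumors and to 14.98 and 13.2 RPM per kb in LLC-Chem tumors. The 3 beta chains summed to 71.9 and 83.97 and then to 78.3 and 83.9 RPM per kb, with overlapping groups. Lamc1 was at 49.3 and 68.9 and then at 80.9 and 90.2 RPM per kb. The alpha chains summed to less than the beta chains or Lamc1 in every pool, and their sum was lower in both LLC-Chem pools. Relative to Lamc1, Lama5 stood at 0.335 and 0.218 in LLC tumors and at 0.0875 and 0.071 in LLC-Chem tumors, and Lama4 at 0.178 and 0.238 and then at 0.0792 and 0.0626. The ratio of Lamc1 to Lamb1 was 0.924 and 1.20 in LLC tumors and 1.69 and 1.79 in LLC-Chem tumors. Among the beta chains, Lamb2 took 25.7% and 31.3% of the sum in LLC tumors and 38.7% and 40.0% in LLC-Chem tumors. The pools of the groups did not overlap in these ratios and shares, which were not tested. Pools that do not overlap are common here, with 39.3% of all genes tested lower and 33.1% higher in both LLC-Chem pools, and the ratio of Lama5 to Lama4 overlapped, at 1.88 and 0.913 against 1.10 and 1.13. Among the alpha chains, the share of Lama5 was 62.1% and 43.7% in LLC tumors and 47.2% and 48.7% in LLC-Chem tumors, which overlapped.

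**Figure D3:**
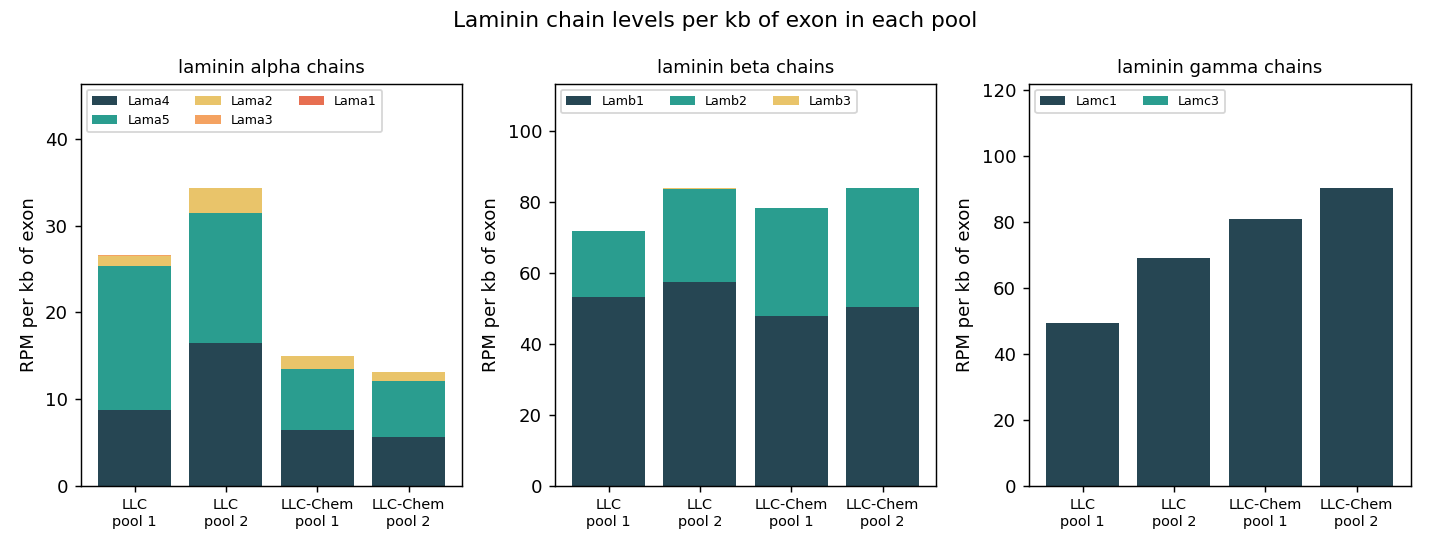
Stacked bars of laminin alpha and beta chain levels and of the gamma chains Lamc1 and Lamc3 in RPM per kb of exon, 1 bar for each of the 4 pools, with 1 colour for each chain. The alpha bars are shorter in both LLC-Chem pools (14.98 and 13.2 against 26.6 and 34.4), the beta bars overlap between the groups, and the gamma bars, almost all Lamc1, are taller in LLC-Chem (80.9 and 90.2 against 49.3 and 68.9).

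Other genes of the basement membrane went in both directions. Of 20 genes listed, 15 were tested, 2 rose (13.3%, beside 9.54% of all genes tested) and 3 fell (20%, beside 13.5%), with a median log2 fold change of 0.09 beside -0.04. Dag1, the gene of dystroglycan, a laminin receptor outside the integrin family, rose from 170 and 223 RPM to 353 and 340.1 RPM (limma log2 fold change 0.83, adjusted p = 0.0232). Col4a2, a chain of collagen IV, rose by 0.45 in log2 (limma adjusted p = 0.0468), just inside the threshold. The most abundant of the list, Nid1, which links laminin to collagen IV, was at 1008 and 1408 RPM in LLC and 1607 and 1832 RPM in LLC-Chem tumors and was not called (limma adjusted p = 0.123). Col15a1, a collagen of vascular and muscle basement membranes, and Nid2 fell, with log2 fold changes of -2.13 and -1.69 (limma adjusted p = 0.0209 and 0.0348).

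Among 26 genes listed as integrin ligands, 20 were tested, 2 rose (10%, beside 9.54% of all genes tested) and 4 fell (20%, beside 13.5%), with a median log2 fold change of -0.14. Edil3, a secreted RGD ligand of Itgav integrins, rose from 2.60 and 2.05 RPM to 18.8 and 17.5 RPM (limma log2 fold change 2.73, adjusted p = 0.00665). Vcam1, the cell surface ligand of Itga4 and Itga9 integrins, rose from 74.9 and 68.5 RPM to 124 and 199 RPM (limma log2 fold change 1.13, adjusted p = 0.0274). Postn, the gene of periostin, a matrix ligand of Itgav integrins, fell from 430 and 796 RPM to 64.5 and 62.0 RPM (limma log2 fold change -3.20, adjusted p = 0.00909). Icam2, an endothelial ligand of Itgal, also fell (limma log2 fold change -1.96, adjusted p = 0.0135). Fn1, the gene of fibronectin and the most abundant ligand, was at 2926 and 4274 RPM in LLC and 6474 and 7664 RPM in LLC-Chem tumors. Both LLC-Chem pools stood above the LLC pools, but the log2 fold change of Fn1 was not called (0.99, limma adjusted p = 0.0656). It was called by DESeq2 (adjusted p = 0.000141), by edgeR (adjusted p = 0.0405) and by limma with the filter at 5 RPM (adjusted p = 0.047), with a range of 0.000141 to 0.416 over its alternatives.

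Inside the cell, integrin tails bind adaptors and kinases. Of 32 listed, 30 were tested, 1 rose (3.33%, beside 9.54% of all genes tested) and 6 fell (20%, beside 13.5%), with a median log2 fold change of -0.28. The abundant cytoskeletal linkers Flna, Tln1 and Zyx were not called, with log2 fold changes of -0.33, -0.35 and -0.07. The tensins split. Tns3 fell from 128 and 111 RPM to 68.2 and 59.8 RPM (limma log2 fold change -0.90, adjusted p = 0.0142), and Tns2 rose from 101 and 129 RPM to 216 and 217 RPM (limma log2 fold change 0.93, adjusted p = 0.016). Ptk2b, a focal adhesion kinase of leukocytes, fell by 1.93 in log2 (limma adjusted p = 0.0117).

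Markers of endothelial, mural and blood cells were lower in the same pools as many of these genes. In bulk tumors fewer cells of a type and less RNA per cell cannot be told apart. The 10 endothelial markers, all above the detection limit, summed to 297 and 239 RPM in LLC tumors and to 80.4 and 48.8 RPM in LLC-Chem tumors. Of the 10, 9 fell, beside 13.5% of all genes tested. All 10 belong to an angiogenesis signature that the study already reported as lowered in these tumors. Their fall is thus no separate result, and some other genes of that signature did not fall. The 6 mural cell markers summed to 229 and 190 RPM and then to 65.1 and 43.3 RPM, and 5 of the 6 fell, beside the same 13.5%. These sums stand beside the lower values of Lama5, Lama4, Itga1 and Itga7. Not all members found in vessels were lower. Lamc1 and Lamb2 stood higher in both LLC-Chem pools, and the groups overlapped for Itga6. The part of the marker sums in any of these values was not tested.
The 12 myeloid markers summed to 1792 and 1960 RPM in LLC tumors and to 1228 and 767 RPM in LLC-Chem tumors. Of the 11 tested, 7 fell, beside 13.5% of all genes tested. Ptprc, which all leukocytes carry, fell from 124 RPM in both LLC pools to 55.2 and 29.3 RPM (limma log2 fold change -1.62, adjusted p = 0.0218), while Mrc1, of macrophages, was not called (log2 fold change -0.06). The 12 lymphoid markers were low, with sums of 25.1 and 20.99 RPM and then 6.45 and 4.10 RPM. The 4 of them that limma called lower passed the filter only through their LLC pools, so that count is no support. Their part in the values of Itgal, Itgam and Itgb7 was not tested. The 5 fibroblast markers included 1 that rose and 2 that fell, and the 4 adipocyte markers, of which Cfd rose, had overlapping sums, of 28.0 and 19.99 RPM and of 39.7 and 14.2 RPM. Of the 7 epithelial and keratinocyte markers 3 were tested and of the 5 Schwann cell markers 3, and limma called none of these, while 1 of the 5 skeletal muscle markers, Tnnt3, rose at a level of at most 4.60 RPM and Ckm and Myh4 were at 0 RPM.

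**Figure D4:**
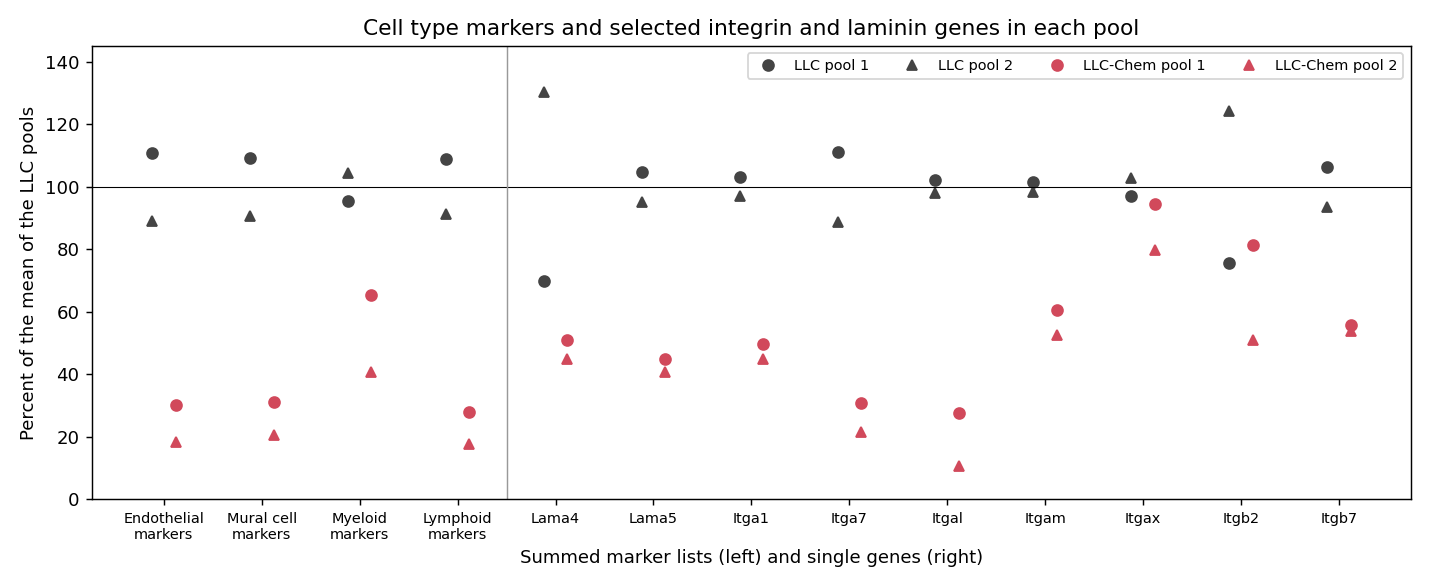
Summed RPM of 4 lists of cell type markers (left) and RPM of 9 integrin and laminin genes (right) in each pool, as a percentage of the mean of the LLC pools, with grey for LLC, red for LLC-Chem, circles for the first and triangles for the second pool. The LLC-Chem pools of the endothelial, mural and lymphoid sums lie lowest among the 4 lists. Among the genes, the LLC-Chem pools of Itgal and Itga7 lie lowest. Itgax and the first LLC-Chem pool of Itgb2 lie nearest to the LLC mean. All 9 genes shown have a lower mean in LLC-Chem. Lamc1 and Lamb2, which were higher in both LLC-Chem pools, are not shown.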

How the data were processed

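RNA from pools of LLC tumors was sequenced in 4 libraries, 2 per group, mapped by the authors to GRCm38.p4 with STAR and counted on genes of Ensembl release 84 with HTSeq, as the study's methods and the submitters' processing notes state. Tool versions and the strand setting are not given in the sources used here. The authors deposited RPM for 47729 genes. All nonzero values (100%, tolerance 0.05 of a step) were whole steps of 0.04997 RPM, as if reads had been scaled to a fixed total and rounded up, which is an inference from the values. Library totals were fitted from the histogram of steps 3 to 600 on a grid of 1000 reads, and reads were recovered to within 1 read for genes under 1000 reads (checked on simulated libraries). No column was left unused.

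The two-sided test was limma 3.58.1 (R 4.3.3) on log2(RPM + 0.5), by lmFit and eBayes with a trend, for the 13694 genes averaging 1 RPM or more, and p-values were adjusted by Benjamini-Hochberg over these. This replaces the edgeR test of the study, because RPM are not counts. In a simulation of 13640 genes the test recovered 83 of 100 genes changed by 1 and 100 of 100 changed by 2 on the log2 scale, with 15 unchanged genes among 198 calls. The simulation gave every gene the same variability beyond counting error and changed far fewer genes than were called here. Its rates may therefore not hold for these libraries. On the recovered reads edgeR 4.0.16 (quasi-likelihood test) gave 1556 higher and 1615 lower calls, and DESeq2 1.42.0 was run on the same reads. Further alternatives were pseudocounts of 0.1 and 1, TMM and median-of-ratios scaling, an untrended eBayes, other filters on low values, the replicate number as a block and leaving out each pool. The p-values measure the spread between pools, which may be partly technical.

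The members, gene lists and tests were chosen with earlier results of these data known. Every member may be named. From the other lists the 3 most abundant genes, the 2 with the lowest adjusted p in each direction and any endothelial, myeloid or platelet marker may be named, and Gm42957, Krt5, Krt14, Ckm and Myh4 were named after their values were seen. Levels per kb divide RPM by the exon length of the gene in GENCODE M21 (GRCm38), where 47224 identifiers (98.9%) and all 38 members were found. Promoter windows came from RefSeq. The values of 1 member are not reported here, though it is in the counts and medians. Summaries used pandas 2.3.3 and numpy 2.4.6 in Python 3.11.15, and plots matplotlib 3.10.9.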

Additional observations from a re-analysis of the deposited data

How the results depend on the processing

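Of the 11 called members, 5 (Itgal, Itga7, Lama5, Itgb7 and Itgam) were called in all 12 alternatives that kept the 4 pools and a filter on low values, and the others in 5 to 11 of them. These 12 include the crossing of replicate numbers described below, which was chosen after seeing the data and called all 11. With no filter on low values limma called 1 of all genes higher and 0 lower (3394 and 4003 at an unadjusted p under 0.05), 0 members in either direction (2 higher and 14 lower at an unadjusted p under 0.05), and 0 of the basement membrane partners, ligands and adaptors. The groups share replicate numbers, but the deviations of same-numbered pools correlated at -0.14 over 13694 genes, so the numbers were not taken to pair the pools. With the replicate number as a block, limma called 549 genes higher and 1064 lower, 0 members higher and 8 lower, and 1 basement membrane partner higher. edgeR's quasi-likelihood test with the block called 510 genes higher and 740 lower, 0 members higher, 0 basement membrane partners higher and 2 adaptors lower. With the numbers crossed, an alternative chosen after seeing the data, limma called 1579 genes higher and 2320 lower, and added Itga4, Itgb2 and Lama4 to the members called. eBayes without a trend gave 1 member higher, 1 basement membrane partner higher and 1 lower, and 1 ligand higher. DESeq2 gave 4 members and 5 basement membrane partners higher. The filter at 5 RPM (1112 genes higher and 1475 lower) left 1 member called higher, and that at 0.3 RPM 1 basement membrane partner higher. In each fit that left out a pool, all counts of calls in every list were 0, and the fits of 3 pools assume that a lone pool varies like those of the other group. The direction of Fbn1, near no change with 4 pools (0.01), was reversed by DESeq2 (-0.18) and edgeR (-0.17). The log2 fold changes of 7 genes that were not called turned direction when single pools were left out, with ranges of -0.98 to 0.069 for Itga11, -0.59 to 0.023 for Itga6, -1.16 to 0.034 for Lama2, -0.23 to 0.10 for Mrc1, -0.60 to 0.40 for Spp1, -0.21 to 0.064 for Zyx and -0.79 to 0.81 for Fbn1. The other causes of lost calls were not tested. Read depth limits the weakly expressed members, such as Itga2 (24 and 12 reads in LLC-Chem pools) and those not tested, and counting error was not separated from the spread between pools.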
